A study of Mus musculus with 6 samples.

Results

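The 9 cytotoxic granule genes Gzma, Gzmb, Gzmk, Prf1, Nkg7, Ctsw, Srgn, Serpinb9 and Serpinb6b were followed through splenic CD4+ T cells. They were taken by symbol from a table of 38216 gene symbols, all 9 were found, and all 9 passed a filter that left 13311 genes for testing. Every library came from naive C57BL/6 mice on postnatal day 28 that carried the IL21-VFP reporter, in which transcription of the cytokine gene Il21 makes a cell fluoresce with VFP. The ACT IL21 pool was sorted as VFP+ICOS+, the ACT pool as VFP-ICOS+ and the N pool as VFP-ICOS-, where ICOS is a costimulatory receptor that T cells display after activation. Each pool was measured in 2 libraries from spleen, so all groups share the reporter allele, and a CD4 gate alone does not separate conventional T cells from regulatory T cells or CD4+ NKT cells.

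Cytotoxic lymphocytes kill through secretory lysosomes, the lytic granules. Perforin opens pores in the target membrane, granzymes enter and cleave intracellular substrates, and the proteoglycan serglycin holds the cargo in the granule. Cytosolic serpins protect the killer cell from granzyme that leaks out of its own granules. The programme is best known from CD8 T cells and natural killer cells, but some CD4+ effector cells, regulatory T cells and NKT cells also use granzymes.

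The sort markers matched their gates. Icos was at 185 and 227 TPM (a length-corrected transcript abundance whose total is the same in every library) in ACT IL21, at 254 and 241 TPM in ACT, against 35.7 and 31.9 TPM in N. Il21 was at 44.5 and 51.9 TPM in ACT IL21, at 0 and 1.26 TPM in ACT, and listed at 0 in both N libraries. Libraries of the same pool had rank correlations across genes of 0.941 to 0.971 and libraries of different pools 0.904 to 0.931, where genes are not independent replicates. TPM keeps no read counts, so the depth behind each value is unknown. Nothing in the labels assigns the 2 libraries of a pool to different mice, so each p-value reflects no more than library-to-library spread, possibly technical. With 2 libraries against 2, calls rest on limma, a linear model that shares the spread over genes, and on p-values adjusted over all 13311 genes with a threshold of 0.05.

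The promoters of 4 members are shown because these genes had different orders among the pools: Gzmb and Nkg7 were highest in ACT, Gzmk was highest in ACT IL21 and Prf1 was highest in N. Each line gives the 300 bases from 250 before to 50 after the RefSeq transcription start, read along the gene's strand on GRCm38.p6. Capitals mark matches to 5 motifs searched on both strands: AP-1 (TGANTCA), CRE (TGACGTCA), Runx (TGTGGT), a T-box motif (GGTGTGA) and a STAT site (TTCNNNGAA).
Gzmb: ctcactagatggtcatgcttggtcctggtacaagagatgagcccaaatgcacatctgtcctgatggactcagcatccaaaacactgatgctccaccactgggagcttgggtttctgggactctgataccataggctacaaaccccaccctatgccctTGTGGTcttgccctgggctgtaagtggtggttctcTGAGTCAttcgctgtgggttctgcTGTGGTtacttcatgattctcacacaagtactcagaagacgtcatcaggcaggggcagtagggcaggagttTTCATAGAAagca
Nkg7: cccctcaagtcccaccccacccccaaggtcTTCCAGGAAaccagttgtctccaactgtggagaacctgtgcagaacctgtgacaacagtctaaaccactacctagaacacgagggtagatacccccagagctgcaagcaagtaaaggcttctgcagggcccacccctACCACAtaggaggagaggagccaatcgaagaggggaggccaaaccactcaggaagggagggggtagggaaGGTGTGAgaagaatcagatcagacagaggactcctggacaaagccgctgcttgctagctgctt
Gzmk: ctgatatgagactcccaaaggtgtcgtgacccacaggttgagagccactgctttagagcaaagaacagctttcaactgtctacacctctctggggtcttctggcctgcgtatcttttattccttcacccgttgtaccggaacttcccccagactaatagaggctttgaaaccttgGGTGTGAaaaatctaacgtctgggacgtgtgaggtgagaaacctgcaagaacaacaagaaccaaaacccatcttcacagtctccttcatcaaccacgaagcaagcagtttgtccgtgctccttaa
Prf1: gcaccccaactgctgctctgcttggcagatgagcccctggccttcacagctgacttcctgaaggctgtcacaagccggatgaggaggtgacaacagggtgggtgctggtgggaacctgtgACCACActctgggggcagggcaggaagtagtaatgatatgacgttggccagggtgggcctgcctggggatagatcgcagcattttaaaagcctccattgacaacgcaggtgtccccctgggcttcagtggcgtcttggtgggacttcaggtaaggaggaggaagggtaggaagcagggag

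The Gzmb window lies at chr14:56262285-56262584 on the minus strand, the Nkg7 window at chr7:43436888-43437187 on the plus strand, the Gzmk window at chr13:113180916-113181215 on the minus strand and the Prf1 window at chr10:61297586-61297885 on the plus strand. The Gzmb window held 1 AP-1 match, 2 Runx matches and 1 STAT match, which do not overlap one another. Nkg7 held 1 Runx, 1 T-box and 1 STAT match, Gzmk 1 T-box match and Prf1 1 Runx match. Over all 32851 promoter windows of the same length, 7.81% held the AP-1 letters, 1.79% CRE, 16.8% Runx, 3.98% the T-box letters and 8.3% the STAT letters. Windows were found for 8 of the 9 members, and none held CRE. These are matches of letters in a short window and not measured binding.

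In the annotation of the same build (GENCODE M21, GRCm38) all 9 are protein-coding genes. Gzma (chr13:113093825-113100981, minus strand) and Gzmk (chr13:113171608-113225908, minus strand) are neighbours 70.6 kb apart with no protein-coding gene between them. Serpinb6b (chr13:32965209-32979067, plus strand) and Serpinb9 (chr13:33003250-33017957, plus strand) are likewise neighbours, 24.2 kb apart in a cluster of related serpin genes. The Gzmk promoter window shown above lies inside the annotated span of Gzmk, so its RefSeq start is not the outermost annotated start. Gzmb lies at chr14:56258838-56262260 on the minus strand, Prf1 at chr10:61297833-61304680 on the plus strand and Srgn at chr10:62493833-62527451 on the minus strand. Nkg7 is at chr7:43437073-43438249 on the plus strand, and Ctsw at chr19:5465043-5468507 on the minus strand. Of the distinct 50-base windows in their transcripts, 2.92% were shared with another gene for Serpinb6b, 0.378% for Serpinb9 and 0 for the other members. Annotated exons of Ctsw overlap exons of Fibp on the opposite strand. The strand setting of the library is not given in the sources used here, so Ctsw reads in that overlap cannot be told from Fibp reads, and Fibp itself was at 16.2 and 22 TPM in ACT IL21, 19.1 and 12.4 TPM in ACT and 16.3 and 13 TPM in N.

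The granule genes did not move as 1 block. By mean TPM, 7 of the 9 were highest in ACT, Gzmk was highest in ACT IL21 and Prf1 was highest in N. The share of all genes with their highest mean in ACT was not computed, so this count describes the members only. For Srgn and Serpinb9 the ACT and ACT IL21 libraries overlapped, and Gzma did not exceed 3.94 TPM. The order ACT, then ACT IL21, then N held for Gzmb, Nkg7, Srgn, Serpinb9 and Serpinb6b. The sum of the 9 was 1515 and 1284 TPM in ACT IL21, 1945 and 1989 TPM in ACT, and 446 and 430 TPM in N. Srgn alone made up 82.7% and 85.5% of that sum in ACT IL21, 59.2% and 68.2% in ACT, and 87.5% and 86.9% in N. In a sorted bulk pool, fewer cells carrying a transcript and less RNA per cell cannot be told apart.

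**Figure D1:**
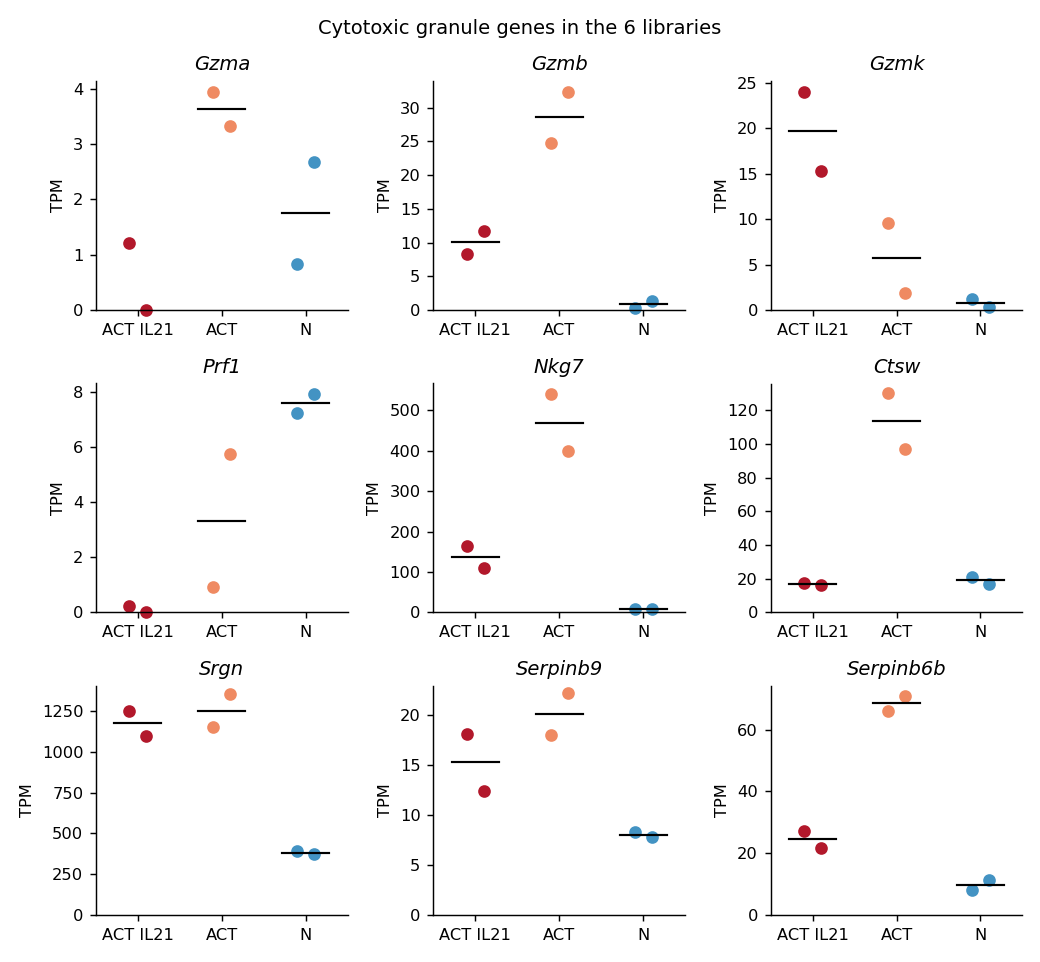
TPM of each member in the 6 libraries, 1 panel per gene with its own vertical axis from 0. Points are libraries and bars are means of 2 libraries, drawn only where neither is listed at 0. Gzmk has its highest mean in ACT IL21, Prf1 in N and the other genes in ACT. The ACT and ACT IL21 libraries overlap for Srgn and Serpinb9.

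Granzyme B, the serine protease that cleaves after aspartate and triggers apoptosis, was the granzyme with the highest level in ACT. Gzmb was at 8.37 and 11.7 TPM in ACT IL21, at 24.8 and 32.4 TPM in ACT, against 0.33 and 1.35 TPM in N. The 3 pools did not overlap, with ACT on top and N near the bottom of the measurable range. The mean was 11.9 times that of N in ACT IL21 and 34 times in ACT. On the log2(TPM + 1) scale, which understates changes of low genes, the fold change against N was 2.62 ± 0.42 (SE, limma adjusted p = 0.0122) in ACT IL21 and 4.05 ± 0.42 (adjusted p = 0.0015) in ACT. Between ACT IL21 and ACT it was -1.43 (95% interval -2.40 to -0.46), which did not pass over all genes (adjusted p = 0.16). The call of ACT IL21 against N ended without either ACT IL21 library or without N replicate 1 (log2 fold changes 2.21 to 2.84, adjusted p 0.0653 to 0.104).

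Granzyme K, a trypsin-like granzyme, had another order. Gzmk was at 24 and 15.3 TPM in ACT IL21, at 9.58 and 1.86 TPM in ACT, against 1.16 and 0.32 TPM in N. The ACT IL21 libraries stood above both ACT libraries, which differed widely from each other. Against N, Gzmk rose in ACT IL21 (log2 fold change 3.58 ± 0.65 SE, limma adjusted p = 0.0203), and ACT had a value of 1.7 that did not pass (adjusted p = 0.207). The difference between ACT IL21 and ACT, 1.88 (95% interval 0.37 to 3.38), did not pass either (adjusted p = 0.233). With any single ACT IL21 or N library left out, the call against N ended (3.23 to 3.94, adjusted p 0.0736 to 0.143), and without ACT replicate 2 the value of ACT against N was 2.65 and passed (adjusted p = 0.0343).

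Granzyme A, the other trypsin-like granzyme and the genomic neighbour of Gzmk, stayed low. Gzma was at 1.21 and 0 TPM in ACT IL21, at 3.94 and 3.33 TPM in ACT, against 0.83 and 2.67 TPM in N. ACT libraries were the highest, and the ACT IL21 and N libraries overlapped. No comparison passed, with log2 fold changes of -0.80 for ACT IL21 against N (limma adjusted p = 0.524), 0.84 for ACT against N (adjusted p = 0.509) and -1.64 for ACT IL21 against ACT (adjusted p = 0.237).

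Perforin, the pore-forming protein, was the 1 member with its highest mean in N. Prf1 was at 0.24 and 0 TPM in ACT IL21, at 0.92 and 5.76 TPM in ACT, against 7.27 and 7.93 TPM in N. Both ACT libraries and both ACT IL21 libraries lay below both N libraries, and the 2 ACT libraries were far apart. Prf1 fell in ACT IL21 against N (log2 fold change -2.95 ± 0.62 SE, limma adjusted p = 0.0363). The values of ACT against N (-1.25, adjusted p = 0.338) and of ACT IL21 against ACT (-1.69, adjusted p = 0.256) did not pass. The call in ACT IL21 ended with any single ACT IL21 or N library left out (-3.10 to -2.79, adjusted p 0.141 to 0.231). Cd8b1, which encodes a chain of the CD8 coreceptor, was highest in N as well, at 9.8 and 3.41 TPM in ACT IL21, 5.59 and 7.41 TPM in ACT and 26.7 and 18.7 TPM in N. Cd8a, the other chain, did not exceed 0.36 TPM in any library, and the part of CD8 T cells in the Prf1 levels was not tested.

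Within a library, the ratio of Prf1 to Gzmb TPM was 0.0287 and 0 in ACT IL21, 0.0371 and 0.178 in ACT, and 22 and 5.87 in N. Perforin transcript thus exceeded granzyme B transcript in the N libraries and was below it in the other 4. These ratios carry no test, and those of N rest on Gzmb values near 1 TPM or less.

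NKG7, a membrane protein of cytotoxic granules required for efficient degranulation, had the largest log2 fold change in ACT against N among the 9 genes. In ACT IL21 against N the order of the members depended on the pseudocount: at 0.1 in place of 1, Nkg7 had 3.97 and Gzmk 4.73. By ratio of means the ACT IL21 level was 16.2 times that of N for Nkg7 and 26.6 times for Gzmk. Nkg7 was at 165 and 109 TPM in ACT IL21, at 539 and 399 TPM in ACT, against 8.9 and 8 TPM in N. The pools were fully separate. The ACT mean was 55.5 times that of N and 3.43 times that of ACT IL21. Nkg7 rose against N in ACT IL21 (log2 fold change 3.84 ± 0.24 SE, limma adjusted p = 0.00022) and in ACT (5.62 ± 0.24, adjusted p = 3.26e-05), where only 0.0902% of all tested genes had a larger fold change. It fell in ACT IL21 against ACT (-1.79 ± 0.24, adjusted p = 0.0129), a call that ended without ACT IL21 replicate 2 or ACT replicate 1 (-1.49 and -1.57, adjusted p = 0.1 and 0.0506).

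Cathepsin W, a cysteine protease of CD8 T cells and natural killer cells, was high in ACT alone among the pools. Ctsw was at 17.6 and 16.1 TPM in ACT IL21, at 130 and 97.2 TPM in ACT, against 21 and 17.1 TPM in N. ACT IL21 and N overlapped, and both ACT libraries lay far above them. The ACT mean was 5.98 times that of N and 6.75 times that of ACT IL21. Ctsw fell in ACT IL21 against ACT (log2 fold change -2.67 ± 0.23 SE, limma adjusted p = 0.00324) and rose in ACT against N (2.51 ± 0.23, adjusted p = 0.000914). Its value for ACT IL21 against N was -0.16 (95% interval -0.70 to 0.38, adjusted p = 0.785). Of the 3 falls from ACT to ACT IL21, that of Ctsw was the 1 that passed under all 15 alternative settings.

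Serglycin, the proteoglycan core of the granule matrix, was abundant in every pool. Srgn was at 1254 and 1098 TPM in ACT IL21, at 1153 and 1357 TPM in ACT, against 390 and 373 TPM in N. The 2 ICOS+ pools overlapped, and each library of them lay above N. Srgn exceeded 97.7% to 97.9% of the tested genes in the N libraries and 99.2% to 99.5% in the other 4. It rose against N by 1.62 ± 0.15 in ACT IL21 (log2 fold change, SE, limma adjusted p = 0.00119) and by 1.71 ± 0.15 in ACT (adjusted p = 0.000712). The difference between ACT IL21 and ACT was -0.09 (95% interval -0.43 to 0.25, adjusted p = 0.82).

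The serpins came last. Serpinb6b encodes a mouse intracellular serpin that inhibits granzyme A, and Serpinb9 encodes the inhibitor of granzyme B known as Spi6. Serpinb6b was at 27.3 and 21.6 TPM in ACT IL21, at 66.2 and 71 TPM in ACT, against 8.12 and 11.2 TPM in N. Its 3 pools did not overlap. It rose against N in ACT IL21 (log2 fold change 1.26 ± 0.25 SE, limma adjusted p = 0.0296) and in ACT (2.72 ± 0.25, adjusted p = 0.000914), and fell in ACT IL21 against ACT (-1.46 ± 0.25, adjusted p = 0.0302). The call in ACT IL21 against N ended with any single library of those pools left out (1.06 to 1.47, adjusted p 0.0865 to 0.186). That against ACT ended with any 1 of the 6 libraries left out (-1.62 to -1.30, adjusted p 0.0526 to 0.208). Both Serpinb6b calls also depended on other settings listed under the processing.

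Serpinb9 was at 18.1 and 12.4 TPM in ACT IL21, at 18 and 22.2 TPM in ACT, against 8.28 and 7.78 TPM in N. The ICOS+ pools overlapped and lay above N. No comparison passed, with log2 fold changes of 0.83 for ACT IL21 against N (95% interval 0.11 to 1.54, limma adjusted p = 0.204), 1.22 for ACT against N (0.50 to 1.93, adjusted p = 0.0672) and -0.39 for ACT IL21 against ACT (-1.11 to 0.33, adjusted p = 0.618). The ratio of Gzmb to Serpinb9 TPM was 0.463 and 0.94 in ACT IL21, 1.38 and 1.46 in ACT, and 0.0399 and 0.174 in N. The protease transcript therefore exceeded that of its inhibitor in the ACT libraries and in no other library.

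**Figure D2:**
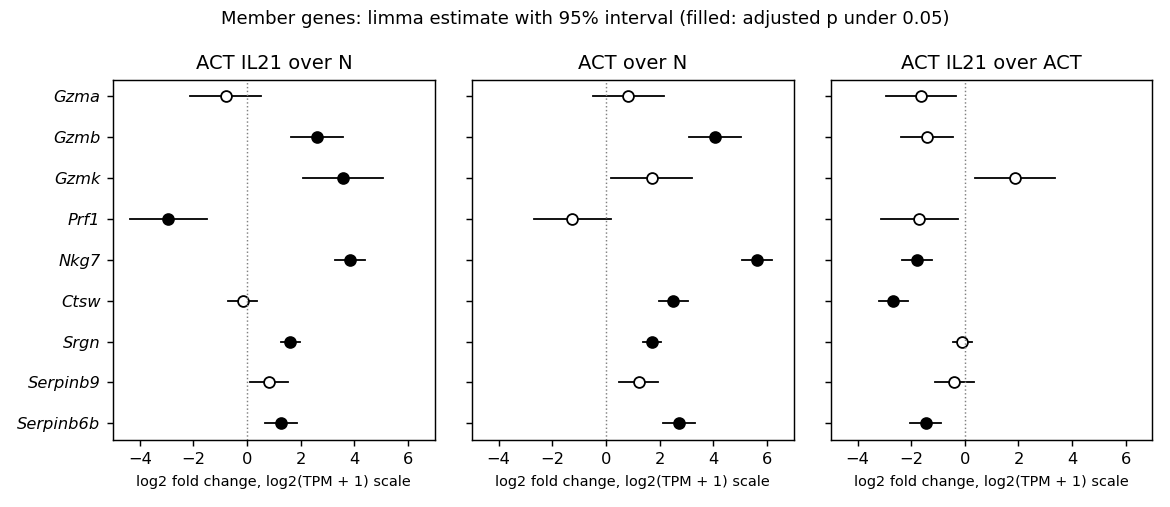
Log2 fold change on the log2(TPM + 1) scale of each member in the 3 comparisons, with 95% intervals from limma. Filled points passed the threshold. Gzmb, Nkg7, Srgn and Serpinb6b passed against N in both ICOS+ pools, and Nkg7, Ctsw and Serpinb6b lay below 0 and passed between ACT IL21 and ACT.

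Counted by comparison, 5 of the 9 members rose and 1, Prf1, fell in ACT IL21 against N, where 5.09% of all tested genes passed, 3.82% higher and 1.26% lower. The members' median log2 fold change was 1.26, against 0.1 over all genes. In ACT against N 5 of 9 rose and none fell, where 5.58% of all genes passed, 4.15% higher and 1.43% lower, and the medians were 1.71 for the members and 0.02 for all genes. Between ACT IL21 and ACT none rose and 3 fell, where 1.95% of all genes passed, 0.796% higher and 1.15% lower, and the medians were -1.46 for the members and 0.08 for all genes. Without regard to p-values, 6 members had both ACT IL21 libraries above both N libraries, as did 31.5% of all genes, and Prf1 had both below, as did 19.9%. In ACT against N 8 members lay above (25.2% of all genes) and Prf1 below (21.9%). Between ACT IL21 and ACT 6 members lay below (17.3%) and Gzmk above (24.5%). At an unadjusted p under 0.05, 7 members differed in each of the 3 comparisons, where the share of all genes was 18.7% in ACT IL21 against N, 18.6% in ACT against N and 14.9% in ACT IL21 against ACT. The comparisons share libraries and are not independent of one another.

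Other genes of the cytotoxic pathway were counted in 6 lists, with 45 of 55 genes tested. In ACT IL21 against N 11 rose and none fell, where 3.82% of all tested genes rose and 1.26% fell. In ACT against N 19 rose and none fell (4.15% and 1.43% of all genes). Between ACT IL21 and ACT none rose and 11 fell (0.796% and 1.15%). The same shares apply to the counts by list below. The lists were chosen with earlier results of these data known, so the counts are not independent of them. Other granzymes were low or listed at 0: Gzmd, Gzme, Gzmf, Gzmg and Gzmn were listed at 0 throughout, Gzmm did not exceed 0.93 TPM, and Gzmc, the 1 tested, reached 1.98 TPM and passed in no comparison.

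Of 6 tested genes of granzyme processing and other serpins, 1 rose in ACT IL21 and 1 in ACT against N, in both cases Cst7, and none passed between ACT IL21 and ACT. Cst7 encodes cystatin F, an inhibitor of cathepsin C, the protease that activates granzymes. It was at 77.1 and 83.2 TPM in ACT IL21, at 71.4 and 66.2 TPM in ACT, against 12.2 and 7.7 TPM in N (log2 fold changes 2.92 and 2.7 against N, limma adjusted p = 0.000769 and 0.000833). Both ICOS+ pools were high and close to each other. Ctsc, the gene of cathepsin C itself, was between 36 and 45 TPM in all 6 libraries.

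Among 13 tested genes of granule biogenesis and exocytosis, 2 rose in ACT IL21, Stx11 and Vamp8, and 4 in ACT, where Lyst and Stxbp2 were added. Stx11, the syntaxin needed for granule fusion whose loss causes hemophagocytic disease, was at 22.1 and 27.2 TPM in ACT IL21, at 30 and 21.9 TPM in ACT, against 0.6 and 1.24 TPM in N. Lyst, the lysosomal trafficking regulator mutated in beige mice, was at 24 and 26.1 TPM in ACT IL21, at 114 and 110 TPM in ACT, against 38.6 and 37.2 TPM in N. It was the 1 gene of this list that fell in ACT IL21 against ACT (log2 fold change -2.12, limma adjusted p = 0.00282). Vamp8 rose by 1.03 in ACT IL21 (adjusted p = 0.0191) and by 1.13 in ACT (adjusted p = 0.0119), and Stxbp2 by 0.89 in ACT (adjusted p = 0.0468). The Vamp8 call in ACT IL21 ended with any single library of the pools compared left out, that in ACT without N replicate 1, and that of Stxbp2 with any 1 of the 6 libraries left out (adjusted p up to 0.156, 0.0997 and 0.296). Cd63, the gene of a broadly expressed lysosomal tetraspanin, was listed at 0 in every library, so a 0 in this table can be a failed estimate, and zeros given here for any gene are listed values only.

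Of 6 tested death ligands and their receptors, none passed in ACT IL21 against N, 2 rose in ACT against N and the same 2 fell in ACT IL21 against ACT. Fasl, which encodes the ligand of the death receptor Fas, was at 15 and 7.86 TPM in ACT IL21, at 43.4 and 67.4 TPM in ACT, against 9.38 and 10.9 TPM in N. Tnfsf10, the TRAIL gene, was at 18.9 and 19.7 TPM in ACT IL21, at 72.3 and 56.6 TPM in ACT, against 22.7 and 27.5 TPM in N. Both were high in ACT and near the N level in ACT IL21. The Fasl call against N ended without either N library (adjusted p up to 0.0779), and its call between ACT IL21 and ACT with any single library left out other than ACT replicate 1 (up to 0.153). Tnfsf10 lost its call against N without ACT replicate 1 or either N library (adjusted p up to 0.135), and its call between ACT IL21 and ACT without ACT replicate 1 or either ACT IL21 library (up to 0.1).

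Of 10 transcriptional regulators of cytotoxic lymphocytes, 5 rose in ACT IL21, 6 rose in ACT, and 4 fell in ACT IL21 against ACT. Over all alternatives the first count ranged from 2 to 5 and the last from 2 to 4, while that of ACT against N stayed at 6. With any single ACT IL21 or N library left out 2 rose in ACT IL21 against N, and with any single ACT IL21 or ACT library left out 2 fell between ACT IL21 and ACT. The calls lost include Tbx21, the T-bet gene, in ACT IL21 against N (adjusted p up to 0.143) and Prdm1, the Blimp-1 gene, in ACT IL21 against ACT (up to 0.132). Zfp683, which encodes Hobit, a regulator of resident and innate-like lymphocytes, was at 5.48 and 7.59 TPM in ACT IL21, at 120 and 78.2 TPM in ACT, against 1.73 and 0.87 TPM in N. It fell in ACT IL21 against ACT (log2 fold change -3.71, limma adjusted p = 0.00493). Its rise in ACT IL21 against N (1.72, adjusted p = 0.041) ended with any single ACT IL21 or N library left out (adjusted p up to 0.253). Id2, an inhibitor of E proteins, and Bhlhe40, a regulator of cytokine genes, rose against N in both ICOS+ pools and fell in ACT IL21 against ACT (-2.07 and -1.37, adjusted p = 0.00324 and 0.0239). The fall of Bhlhe40 ended without either ACT IL21 or either ACT library (adjusted p up to 0.175). Hopx, a homeodomain-only factor of effector cells, rose by 1.5 in ACT IL21 and by 2.19 in ACT on the log2 scale (adjusted p = 0.0105 and 0.00166), and the first of these calls ended with any single ACT IL21 or N library left out (up to 0.1).

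The list of surface and secreted genes of cytotoxic CD4 cells had 9 tested members, of which 3 rose in ACT IL21, 6 rose in ACT, and 4 fell in ACT IL21 against ACT. Slamf7, a SLAM family receptor of natural killer and cytotoxic T cells, was at 20.8 and 15.2 TPM in ACT IL21, at 162 and 178 TPM in ACT, against 7.7 and 5.74 TPM in N. Klrg1, an inhibitory receptor of terminal effector cells, was at 2.86 and 2.7 TPM in ACT IL21, at 72.8 and 98 TPM in ACT, against 0.33 and 0.91 TPM in N. Cd226, an activating receptor gene, was at 68.7 and 61.7 TPM in ACT IL21, at 232 and 246 TPM in ACT, against 52.5 and 50.6 TPM in N. These 3 fell in ACT IL21 against ACT (log2 fold changes -3.18, -4.50 and -1.86, limma adjusted p = 0.00282, 0.00286 and 0.00282). Ccl5, a chemokine gene of effector T cells, was at 145 and 83.1 TPM in ACT IL21, at 404 and 255 TPM in ACT, against 16.2 and 13.6 TPM in N. Its value between ACT IL21 and ACT, -1.54, did not pass (adjusted p = 0.0526). The chemokine genes Ccl3 and Ccl4 went the other way and passed in no comparison. Ccl3 was at 11.6 and 9.22 TPM in ACT IL21 and 0 and 3.88 TPM in ACT, and Ccl4 at 1.68 and 1.69 TPM in ACT IL21 and 0 in both ACT libraries (2.36 and 1.42, adjusted p = 0.217 and 0.2). The rise of Slamf7 in ACT IL21 against N (1.29, adjusted p = 0.027) ended with any single ACT IL21 or N library left out (adjusted p up to 0.194).

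**Figure D3:**
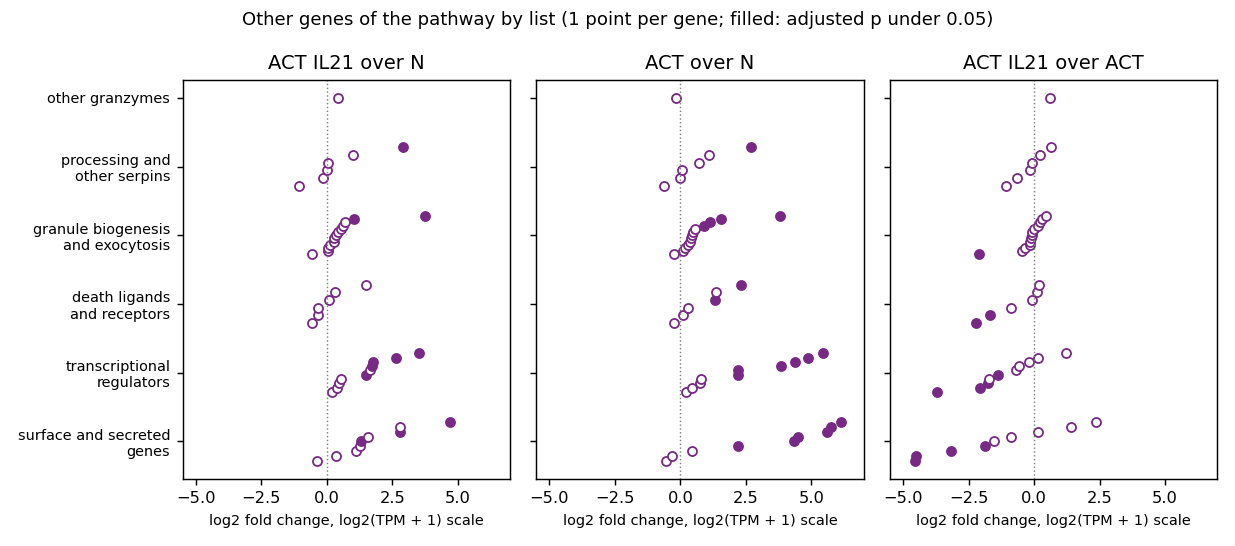
Log2 fold change on the log2(TPM + 1) scale of the other tested pathway genes, 1 point per gene, in rows by list. Filled points passed the threshold: all filled points lie above 0 in ACT IL21 and ACT against N, and all lie below 0 between ACT IL21 and ACT. The lists were chosen with earlier results of these data known.

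Some markers of other lymphocytes also differed between the pools, not all in the same order. The 13 natural killer and NKT cell markers summed to 250 and 265 TPM in ACT IL21, to 1110 and 818 TPM in ACT, and to 102 and 112 TPM in N. The largest single part of that sum in every library was Il2rb, a cytokine receptor chain gene not specific to these cells. It was at 195 and 209 TPM in ACT IL21, 710 and 399 TPM in ACT and 55.5 and 57.5 TPM in N. Of 11 tested, 2 rose and 1 fell in ACT IL21 against N, 6 rose in ACT against N, and 6 fell in ACT IL21 against ACT. Klrd1, the CD94 gene and the 1 that fell against N, was at 6.42 and 13.9 TPM in ACT IL21, at 88.5 and 85.9 TPM in ACT, and in N at 33.3 and 38 TPM. Klrb1c, the NK1.1 gene, was at 25.5 and 25.7 TPM in ACT IL21, at 166 and 177 TPM in ACT, against 2.56 and 2.38 TPM in N. Zbtb16, which encodes PLZF, the factor of innate-like T cells, was at 5.91 and 1.7 TPM in ACT IL21, at 40 and 27.3 TPM in ACT, against 0 and 0.18 TPM in N. The 5 markers of natural killer cells without a T cell receptor include Ncr1, Tyrobp, Fcer1g and Klre1, which are also among the 13. The 5 summed to 3.04 and 3.05 TPM in ACT IL21, to 5.53 and 11.9 TPM in ACT, and to 1.17 and 1.9 TPM in N. Their sums were low, and those of ACT were highest mainly through Klre1 and Fcer1g, the latter at 0.63 and 4.5 TPM in ACT. Tyrobp had another order, at 3.04 and 3.05 TPM in ACT IL21, 0.39 and 2.47 TPM in ACT and 0 and 1.9 TPM in N. The part of natural killer cells was not tested. Among the 5, Ncr1 did not exceed 1.06 TPM. Klre1, the 1 that passed, was at 4.34 and 3.83 TPM in ACT and listed at 0 in the other pools. It met the filter on low values only through the ACT libraries, so its calls carry no separate weight. Several of these marker calls ended under single alternatives, including leaving out 1 library: Klrd1 and Il2rb in ACT IL21 against N (adjusted p up to 0.148 and 0.0694 over all alternatives), Klrc1 and Klre1 in ACT against N (up to 0.138 and 0.179), and Klrk1, Klre1, Zbtb16 and Il2rb in ACT IL21 against ACT (up to 0.0603, 0.203, 0.166 and 0.209). The T cell genes Cd3d, Cd3e, Cd3g, Cd4 and Trac were all at 236 TPM or more in every library. Cd4 itself, which encodes the protein used for the sort, was at 534 and 567 TPM in ACT IL21, at 268 and 236 TPM in ACT, and in N at 358 and 316 TPM. It rose in ACT IL21 against ACT (log2 fold change 1.13, limma adjusted p = 0.0103) and in ACT IL21 against N (0.71, adjusted p = 0.0301). The first call ended without either ACT IL21 library and without the intensity trend of the fit. The second ended with any single ACT IL21 or N library left out. That call also ended with quantile or median-of-ratios scaling, with no filter on low values and without the intensity trend. Cd4 values were lowest in ACT, where most granule genes were highest, and its value of -0.42 for ACT against N did not pass (adjusted p = 0.158). The part of NKT cells in the levels of the granule genes was not tested.

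The 3 measured gamma delta T cell genes summed to 64 and 62.2 TPM in ACT IL21, to 625 and 449 TPM in ACT, and to 9.55 and 8.54 TPM in N, nearly all from Tcrg-C1 and Tcrg-C2, constant segments of similar sequence. Both rose against N in each ICOS+ pool and fell in ACT IL21 against ACT. Sox13, the other measured gene, did not exceed 3.97 TPM and passed in no comparison. Trdc, also on the list, had no values. The part of gamma delta T cells in the levels of the granule genes was not tested. The 4 regulatory T cell genes summed to 344 and 358 TPM in ACT IL21, to 553 and 701 TPM in ACT, and to 121 and 156 TPM in N. All 4 rose in ACT against N, but the calls of Foxp3 and Il2ra ended with any single ACT or N library left out (adjusted p up to 0.268 and 0.204 over all alternatives). In ACT IL21 against N 2 rose, Ikzf2 and Ctla4, and 2 fell, Foxp3 and Il2ra, which were also the 2 that fell against ACT, and the Ikzf2 call ended without ACT IL21 replicate 2 (adjusted p = 0.0515). Foxp3, the regulatory lineage factor, was at 1.57 and 2.69 TPM in ACT IL21, at 65.4 and 51.9 TPM in ACT, against 22.2 and 19.4 TPM in N. Summed levels did not exceed 2.6 TPM for 5 B cell genes, 6.5 TPM for 6 myeloid and dendritic cell genes and 1.49 TPM for 5 mast cell and basophil genes, with Pax5, Mcpt8 and Fcer1a listed at 0 throughout, and Xbp1 accounted for nearly all of the plasma cell sum of 71.3 to 133 TPM.

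**Figure D4:**
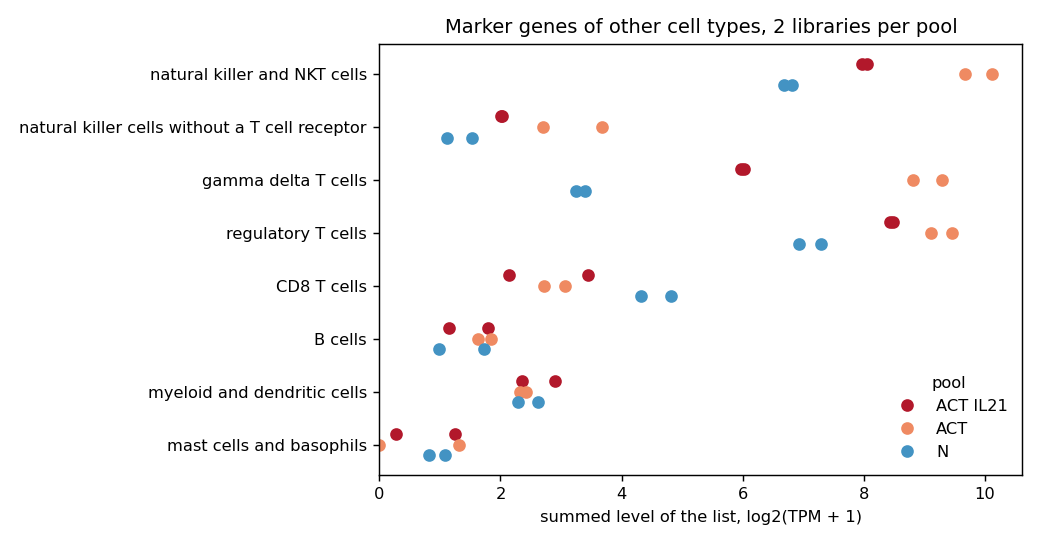
Summed level of the marker lists of other cell types on a log2(TPM + 1) axis, 2 libraries per pool. The natural killer and NKT, gamma delta and regulatory T cell lists are highest in ACT, and the CD8 list is highest in N. The list of natural killer cells without a T cell receptor is at 11.9 TPM or less. Its ACT sums are highest mainly through Klre1 and Fcer1g, and Tyrobp is higher in ACT IL21 than in ACT.

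The genes with the most similar profiles were taken as the 2 with the smallest Euclidean distance between centred log2(TPM + 1) values over the 6 libraries, among 8366 other genes with a mean of at least 5 TPM. For Ctsw they were Ccr9, the gut-homing chemokine receptor gene, and Alkbh2 (distances 0.334 and 0.589). Ccr9 was at 11.5 and 12 TPM in ACT IL21, at 93.5 and 80.8 TPM in ACT, against 12.8 and 11 TPM in N, the same high ACT level between low pools. For Gzmb they were Il18rap, a chain of the interleukin-18 receptor, and Fam129a (0.724 and 0.741), and for Nkg7 the cytokine gene Il4 and Serpina3g (0.695 and 0.831). Gzmk was closest to Slc43a1, an amino acid transporter gene, and Hist2h3b (0.549 and 0.766), and Prf1 to Itm2a and Gsta4 (0.822 and 1.06). Serpinb9 was closest to Zfpm1 and Slc39a6 (0.257 and 0.285), and Serpinb6b to Tnfrsf1b, a TNF receptor gene, and Myo1e (0.507 and 0.517). The nearest to Gzma were Fahd2a and Ftsjd1 (0.764 and 0.812), on values of Gzma near the bottom of the range. With 6 libraries in 3 pools, many genes have such profiles, and the distances describe these libraries only.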

How the data were processed

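Sorted CD4+ pools were lysed for RNA with the RNeasy kit of Qiagen, and poly-A mRNA was amplified by NuGEN Ovation, per the labels' protocols. The authors deposited gene-level TPM, 1 column per library. Per the submitters' processing notes, Trimmomatic, Bowtie and RSEM were used with GRCm38, and no tool version is recorded there. Which annotation release and which strand setting were used is not given in the sources used here. A fixed TPM total means that abundant transcripts lower all others, and amplification adds noise to low values.

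The 38355 entries were summed by symbol into 38216. Genes reaching 1 TPM in 2 or more of the 6 libraries were tested with limma 3.58.1 (R 4.3.3) on log2(TPM + 1), with a term for the pool, all 6 libraries and an intensity trend (3 residual and 4.841 prior degrees of freedom). Tests were two-sided, and p-values were adjusted by Benjamini-Hochberg per comparison over 13311 genes. The script was tested on simulated data. A 0 has no known depth behind it and can be a failed estimate, so libraries at 0 are given as listed. The members, lists and motifs were chosen with earlier results of these data known. All members were named, as were up to 4 genes per pathway list with the smallest p among those past the threshold, the most abundant gene where none passed, and the 2 nearest profiles per member, with provisional symbols and receptor segments left out; those of Srgn are not reported here. Marker genes fall outside that rule. So do further genes given by values, for another order or to spell out a count (Ctsc, Cd63, Ccl3, Ccl4, other granzymes, Fibp). All of these were chosen after their values were seen. Promoters come from RefSeq (GRCm38.p6).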

Additional observations from a re-analysis of the deposited data

How the results depend on the processing

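Of the 14 calls of members, 8 passed under all 15 alternatives: Nkg7 and Srgn in ACT IL21 against N, Gzmb, Nkg7, Ctsw, Srgn and Serpinb6b in ACT against N, and Ctsw in ACT IL21 against ACT. Members past the threshold in ACT IL21 against N, 6 in the reported fit, numbered 3 with no filter on low values and 3 without the intensity trend, where Gzmk, Prf1 and Serpinb6b were lost. Between ACT IL21 and ACT the 3 became 1, Ctsw, under either setting. Quantile normalization ended the Serpinb6b call in ACT IL21 against N, and moved the median of all genes there by more than 0.1, to -0.05 against 0.1. Over all genes, no filter gave 410 calls in ACT IL21 against N (677 reported), 469 in ACT against N (743 reported) and 124 in ACT IL21 against ACT (259 reported), the last being 137 with only the pools compared. With no filter, 18778 genes were tested. The causes of these changes were not tested.

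With 1 library left out, the lone library of its pool is assumed to vary like the others. Members called then ranged from 2 to 6 in ACT IL21 against N, from 5 to 6 in ACT against N and from 1 to 2 in ACT IL21 against ACT, and all genes from 169 to 903, from 260 to 678 and from 32 to 202. The value of Srgn in ACT IL21 against ACT, which passed nowhere, ranged from -0.21 to 0.0255 and turned to 0.00353 without ACT IL21 replicate 2 and 0.0255 without ACT replicate 2. Of 33 calls of named pathway genes, 22 passed under all alternatives, which for these genes were added after seeing the data. Calls of Vamp8, Stxbp2, Fasl, Bhlhe40, Zfp683 and Slamf7 also ended under at least 1 setting that left no library out. Of 270 recomputed list counts, 35 moved by over 1.5 times or to or from 0. Granule biogenesis ranged from 1 to 2 in ACT IL21 against N and from 2 to 4 in ACT against N. Death ligands ranged from 0 to 1 in ACT IL21 against N, from 0 to 3 in ACT against N (0 without either N library) and from 0 to 2 in ACT IL21 against ACT (0 without either ACT IL21 library). With pseudocount 5 or no filter, 3 regulators passed in ACT IL21 against N, and with no filter 2 passed in ACT IL21 against ACT.

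Replicate numbers do not mark a shared animal or day in the labels, and same-numbered libraries had correlations of deviations from the pool means of -0.0040 for ACT IL21 and N, 0.21 for ACT and N and 0.00078 for ACT IL21 and ACT. With the replicate number as a block, 6, 5 and 3 members passed in the 3 comparisons, and the same members were called. All genes called were then 732, 784 and 284. Depth is unknown, so values near 1 TPM or below, as for Gzma, Prf1 and N values of Gzmb and Gzmk, carry an error that cannot be stated.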
